A study of Danio rerio with 32 samples.

Results

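Cytochrome P450 genes were followed in the livers of male zebrafish exposed to the organophosphate insecticide dichlorvos (DDVP) or kept without food. Members were all array probes whose RefSeq transcript belongs to a gene with a symbol of cyp followed by a family number. The rule found 83 probes of 56 genes in 16 families, of 43603 probes on the array, of which 15163 could be given a gene symbol. The gene table lists 87 cyp symbols, and 31 of them had no probe by this rule. Log2 values for the DDVP arrays were deposited for 5481 probes, and 24 of these, for 17 genes of families 1, 2, 3, 4, 8 and 24, are P450 probes.

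P450 enzymes are haem proteins of the endoplasmic reticulum and the mitochondria that insert an oxygen atom into their substrate with electrons handed over by a reductase. Families 1 to 3 mostly oxidise drugs, pollutants and other foreign compounds, and the liver is their main site. The other families make or clear the body's own lipids, with family 4 acting on fatty acids, families 7, 8 and 39 on the path to bile acids, family 51 in cholesterol synthesis, families 11, 17 and 19 in steroid hormone synthesis, and families 24 and 26 in the removal of active vitamin D and of retinoic acid.

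The fish were adult males of the Tübingen strain, aged 6 to 9 months by the labels, and each array carried liver RNA pooled from 4 or 5 fish. In the DDVP experiment fish were kept in flow-through tanks for 24 h, unexposed (8 control arrays in 2 sets of 4) or at a low, mid or high concentration (6, 19 and 32 mg/L by the labels, 4 arrays each, which are target values, with lower measured concentrations for the mid and high groups in the methods). In the feeding experiment, without DDVP, fish were fed 4 h before harvest or had been without food for 29 h by the methods (24 h by the labels) or for 50 h, with 4 arrays per group. Replicates are pools, so every p-value measures the spread between pools and not between single fish.

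The deposited table was picked by the authors for change on these same arrays, so a share of P450 probes called is read against the share of all 5481 probes called. Adjusted p-values on this table were computed after that choice and over the picked probes only, so they do not allow for it. Array medians of the table lay between 9.52 and 9.72 log2 units on the DDVP arrays. In every probe of the table, control set 1, control set 2 and the 29 h unfed group have the same mean to within 1e-04, although the median standard error of a difference between 2 means of 4 arrays is 0.167. Changes are therefore given against control set 1, with the error that 4 controls allow, and the distance between the control sets was not measured. The labels do not say which control set belongs to which concentration, so set 1 may not be the own control of every exposed group. Results with single control arrays left out carry the same limit. The range of both control sets together leaves out that distance too, so it may be too narrow. Statements below that arrays did not overlap the controls therefore describe the deposited values only. Unless stated otherwise, values are log2 values and changes are log2 fold changes. All 13 probes (9 genes) of the hepatocyte marker list passed the signal filter on the feeding arrays, while none of the 14 probes of the gonad and steroid-making list did. All 13 probes (10 genes) of the exocrine pancreas list passed it as well.

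At the low concentration 6 of the 24 P450 probes were called, meaning a change of at least 1.8-fold at an adjusted p of at most 0.001 in limma, a linear model with variances moderated across probes. This was 25% of P450 probes, beside 27.9% of all probes. At the mid concentration 18 P450 probes were called (75%, beside 61.6% of all), and at the high concentration 22 (91.7%, beside 74.2%). By direction, 3 probes were higher and 3 lower at the low concentration, 2 higher and 16 lower at the mid, with 2 higher and 20 lower at the high. Of all probes, 12.4% were called higher and 15.5% lower at the low concentration, 31.3% and 30.3% at the mid, with 39.2% and 35.0% at the high. The median change of the 24 probes was -0.41, -1.29 and -2.27 at the low, mid and high concentrations, beside 0.05, 0.45 and 0.51 over all 5481 probes. The 20 probes that fell at the high concentration belong to 13 genes, those that rose to *cyp24a1* and *cyp2v1*, and only *cyp2aa1* and *cyp4v2b* were not called there.

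**Figure D1:**
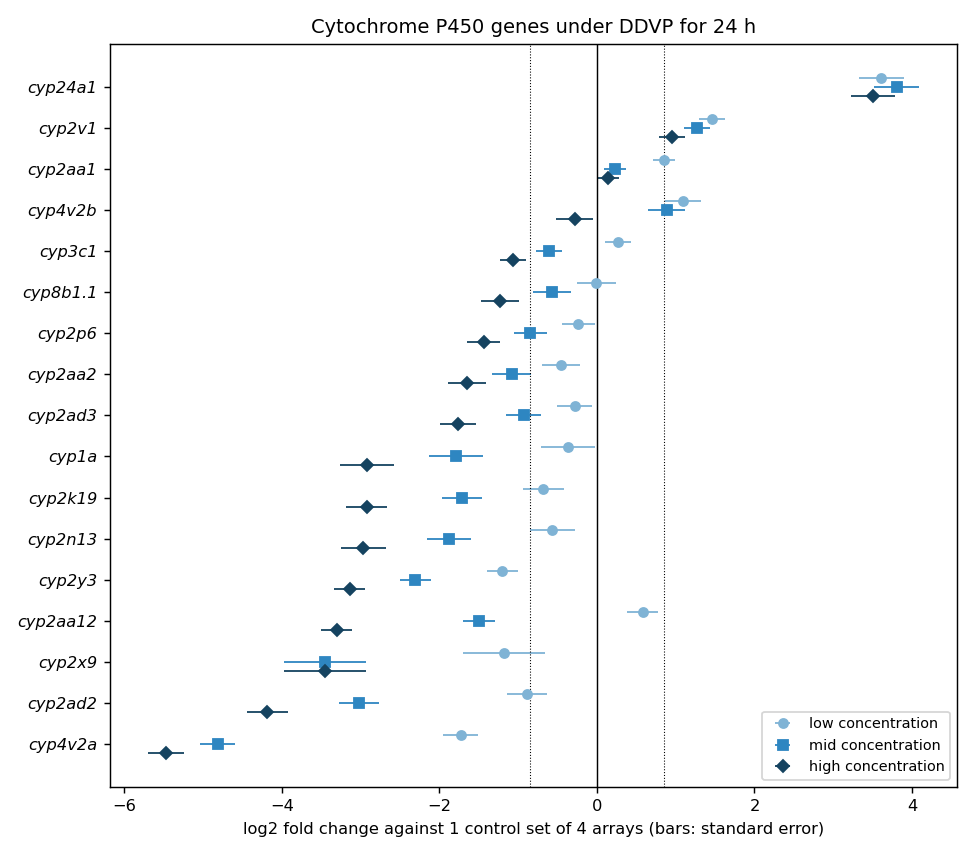
Log2 fold change of the 17 P450 genes of the deposited table at the low, mid and high DDVP concentrations against control set 1 (n = 4 arrays per group), with standard errors as bars and dotted lines at a 1.8-fold change in either direction. *cyp24a1* stood at 3.50 to 3.81 log2 units at all concentrations, *cyp2v1* was called higher at each, and 13 genes were called lower at the high concentration.

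The gene that rose most was *cyp24a1*, the enzyme that inactivates the vitamin D hormone. The 8 controls read 8.97 to 10.92 (median 10.33), the low arrays 13.76, 14.27, 13.59 and 13.61, the mid arrays 13.99, 14.33, 13.81 and 13.88, and the high arrays 13.47, 13.89, 13.61 and 13.82. Every exposed array thus lay above every control. The changes were 3.61, 3.81 and 3.50 (SE 0.28 at each concentration), or 12.2-, 14.0- and 11.3-fold, with adjusted p of 2e-09, 2.3e-10 and 4.5e-10. The rise was close to its full size at the low concentration already, and the high change differed from the low one by -0.11 ± 0.40 (SE, adjusted p = 0.82). Pools without DDVP spread more in the feeding experiment. There the deposited values of this probe had SDs of 1.97 in fed fish, 1.33 at 29 h and 2.11 at 50 h. The control sets had SDs of 0.28 and 0.85. A brighter *cyp24a1* probe passed the signal filter on the feeding arrays but is not in the deposited table, so the rise rests on 1 probe. *cyp2aa2*, *cyp2p6* and *cyp4v2b* likewise have another passing probe outside that table, which was picked for change. Each of them is also read from 1 probe under DDVP.

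The second gene that rose was *cyp2v1*, a member of family 2. The 8 controls read 8.67 to 9.18 (median 8.92), the low arrays 10.43, 10.32, 10.31 and 10.46, the mid arrays 10.45, 10.38, 9.99 and 9.91, and the high arrays 10.02, 10.28, 9.67 and 9.52. No exposed array overlapped the controls. The change was 1.46, 1.27 and 0.95 (SE 0.17), with adjusted p of 4e-07, 6.8e-07 and 1.7e-05. The call at the high concentration rests on the high replicate 2, without which the change was 0.82 and under 1.8-fold.

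Family 1 was represented by *cyp1a*, the enzyme induced by planar aromatic pollutants through the aryl hydrocarbon receptor. Its brightest probe read 14.25 to 14.73 (median 14.51) in the 8 controls, 14.23, 13.93, 14.54 and 13.88 at the low concentration, 11.55, 13.70, 12.74 and 12.87 at the mid, while the high arrays read 12.24, 11.01, 10.86 and 12.25. The low arrays overlapped the controls and the mid and high arrays did not. The changes were -0.36 ± 0.34, -1.79 ± 0.34 and -2.92 ± 0.34 (SE), with adjusted p of 0.36, 6.7e-05 and 1.1e-07. The other 2 *cyp1a* probes fell further, with the lowest change of -3.53 at the high concentration. The study's text names *cyp1a* among genes induced by DDVP, the opposite direction to these deposited values.

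Family 2, the largest P450 family on the array with 22 genes, gave 15 of the 24 probes, for 11 genes. At the low concentration 1 probe was called higher and 1 lower, at the mid 1 higher and 11 lower, while at the high concentration 1 was higher and 13 were lower, of 15 probes each time, beside the shares of all probes given above (12.4% higher and 15.5% lower, 31.3% and 30.3%, and 39.2% and 35.0%). The largest fall among them was that of *cyp2ad2*. It read 13.73 to 14.38 (median 13.90) in the controls, 12.74, 12.97, 13.00 and 13.63 at the low concentration, 10.38, 10.86, 11.25 and 11.31 at the mid, while the high arrays read 10.25, 10.30, 9.01 and 9.60. Each exposed array lay below every control, and the changes were -0.89, -3.02 and -4.18 (SE 0.26), the first with an adjusted p of 0.0052 and not called, the others with 1.7e-09 and 8.5e-12.

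*cyp2y3* was the only family 2 gene called lower at all 3 concentrations. The controls read 12.31 to 13.21 (median 12.92), the low arrays 11.47, 11.92, 11.53 and 11.86, the mid arrays 10.74, 10.31, 10.48 and 10.81, and the high arrays 9.73, 9.39, 9.86 and 10.05. The 3 exposed groups did not overlap the controls or one another. The changes were -1.20, -2.31 and -3.14 (SE 0.20), with adjusted p of 3.1e-05, 1.7e-09 and 1.1e-11.

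*cyp2aa12* stood on opposite sides of the controls at the low and high concentrations. The controls read 11.33 to 12.28 (median 11.88), the low arrays 12.41, 12.30, 12.42 and 12.78, the mid arrays 10.32, 10.26, 10.26 and 10.76, and the high arrays 8.93, 8.50, 8.14 and 8.80. All low arrays were above, and all mid and high arrays below, the 8 controls. The low value, 0.58 ± 0.20 (SE, adjusted p = 0.015), was not called, while -1.50 at the mid and -3.31 at the high were (adjusted p of 8.5e-07 and 6.3e-12). The difference between the high and low effects was -3.89 ± 0.28 (SE, adjusted p = 7.4e-09). Its second probe gave 0.59, -1.03 and -2.11.

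Another 6 family 2 genes fell at the high concentration with no overlap with the controls. *cyp2x9* fell to 10.42, 7.26, 8.32 and 8.62 at the high concentration, against 11.40 to 12.77 (median 12.20) in the controls. Its pools spread more than those of any other gene called here, with an SD of 1.31 at the high concentration, and its changes were -1.19, -3.45 and -3.45 (SE 0.52, adjusted p of 0.051, 4.1e-06 and 2.9e-06). *cyp2n13* fell to 11.14, 11.24, 9.73 and 10.99 at the high concentration, against 13.45 to 14.12 (median 13.72) in the controls, with changes of -0.56, -1.88 and -2.96 (SE 0.28) of which the last 2 were called. *cyp2k19* fell to 8.4, 7.62, 7.08 and 8.07, against 10.38 to 11.07 (median 10.67), with changes of -0.68, -1.71 and -2.92 (SE 0.26), the last 2 called, and -2.44 at the high concentration for its second probe. None of these 3 genes overlapped the controls at the mid or high concentration. *cyp2ad3*, with 3 probes, changed by -1.85 to -1.71 at the high concentration, where the probe described read 11.40, 11.20, 10.04 and 10.35, against 12.15 to 12.68 (median 12.58) in the controls. *cyp2aa2* read 8.37, 8.57, 8.58 and 9.09, against 9.27 to 10.72 (median 10.51), a change of -1.65 (SE 0.24). *cyp2p6* read 9.68 to 10.80, against 11.73 to 12.12 (median 11.85), a change of -1.44 (SE 0.21). The values of *cyp2ad3*, *cyp2aa2* and *cyp2p6* were nearer to 0 than those of the other family 2 genes that fell. The mid value of *cyp2p6*, -0.84, had an adjusted p of 0.00081 but stayed just under 1.8-fold. The mid calls of *cyp2aa2* (-1.08, adjusted p = 0.00034) and *cyp2ad3* (-0.93, adjusted p = 0.00067) were lost on leaving out single arrays: control set 1 replicates 1, 2 or 4 or mid replicates 1, 2 or 3 for *cyp2aa2*, and any control set 1 or mid array for *cyp2ad3*.

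The remaining family 2 gene, *cyp2aa1*, was measured close to the floor, with a signal to noise ratio of 1.4 to 4.05 on the feeding arrays, where it did not pass the filter. It read 6.11 to 6.55 (median 6.30) in the controls and 7.44, 7.13, 7.10 and 6.99 at the low concentration, all above the controls. The low change of 0.85 (SE 0.14, adjusted p = 3.4e-05) corresponds to 1.797-fold and missed the fold threshold, and the mid and high values were 0.23 and 0.14 (adjusted p of 0.12 and 0.34). With arrays centred on their medians or quantile normalized again, the low change was 0.88 or 0.85 and past 1.8-fold.

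Gene order adds a description of the family. In the RefSeq annotation of assembly GRCz12tu, used here only for the order of genes, 11 family 2 genes follow each other without another protein-coding gene between them: *cyp2n13*, *cyp2ad6*, *cyp2ad2*, *cyp2v1*, *cyp2ad3*, *cyp2p6*, *cyp2p7*, *cyp2p8*, *cyp2p9*, *cyp2p10* and *cyp2j20*. The table holds 5 of them, and *cyp2v1*, higher at all concentrations, lies between *cyp2ad2* (-4.18 at the high concentration) and *cyp2ad3* (-1.76). Genes this closely related can share probe targets, and cross-hybridisation between them was not tested.

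Family 3 had a single probe in the table, for *cyp3c1*, of a fish subfamily related to the drug-oxidising CYP3A enzymes of mammals. It fell to 11.69, 11.82, 11.22 and 11.47 at the high concentration, against 12.40 to 12.88 (median 12.61) in the controls, with no overlap (-1.07 ± 0.16, SE, adjusted p = 3.5e-06). The low value was 0.26 (adjusted p = 0.16) and the mid value -0.61 (adjusted p = 0.0016), neither called. The high effect lay below the low one by 1.33 log2 units (difference -1.33 ± 0.23, SE, adjusted p = 7.5e-05).

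In family 4 the paralogues *cyp4v2a* and *cyp4v2b*, related to the human fatty acid omega-hydroxylase CYP4V2, gave unlike values. *cyp4v2a* had the largest fall of the 17 P450 genes. It read 13.31 to 13.99 (median 13.61) in the controls, 11.34, 11.78, 12.21 and 12.35 at the low concentration, 8.49, 9.10, 8.94 and 8.82 at the mid, while the high arrays read 8.04, 7.84, 8.03 and 8.80. Every exposed array lay below every control, and the mid and high arrays lay below the low ones. Both of its probes were called at all concentrations, the brighter with -1.73, -4.81 and -5.47 (SE 0.22). *cyp4v2b* read 10.71 to 12.08 (median 11.75) in the controls, 12.82, 12.26, 13.06 and 12.84 at the low concentration, 12.59, 12.79, 12.22 and 12.54 at the mid, while the high arrays read 11.58, 11.34, 11.22 and 11.33. Its low and mid arrays all lay above the controls, and its high arrays lay within their range. The changes were 1.1 (SE 0.23, adjusted p = 0.00039, called), 0.88 (adjusted p = 0.0013, not called) and -0.28 (adjusted p = 0.24). Control set 1 replicate 3, at 10.71 the lowest of the controls, moved these values. Without it the changes were 0.78, 0.57 and -0.60 (adjusted p = 0.00302 for the last), none of them called. The other 7 controls started at 11.53, above 3 of the 4 high arrays. This shift depends on control set 1 as the reference. Control set 2 has no array this low (11.53 to 11.88, SD 0.16), yet both sets have the same deposited mean of 11.65. How much of the shift comes from that equality was not tested. The low call was also lost without low replicates 1, 3 or 4.

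**Figure D2:**
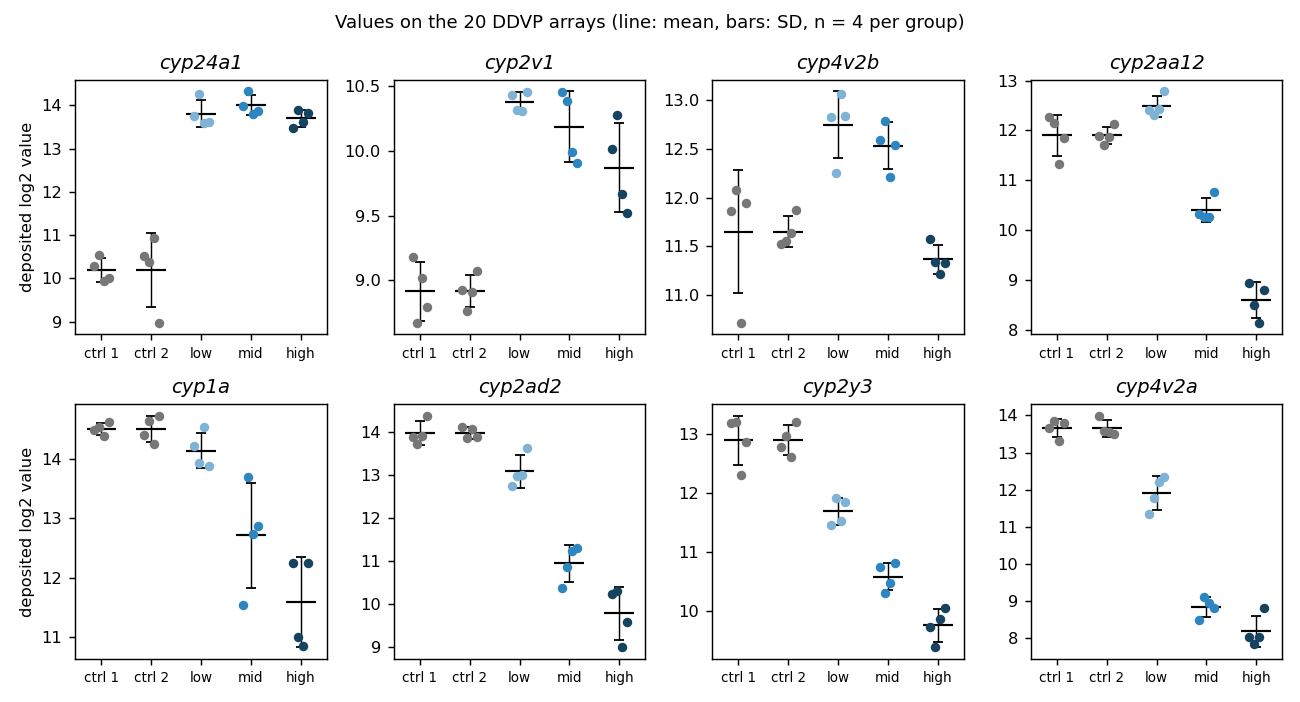
Deposited log2 values of 8 P450 genes on the 20 DDVP arrays, by group (both control sets, low, mid and high), each point 1 array, with the mean as a line and the SD as bars (n = 4 per group; the vertical scale differs between panels). *cyp24a1* and *cyp2v1* lay above the controls in all exposed groups, *cyp4v2b* in the low and mid groups, and *cyp2aa12* above at the low and below at the mid and high concentrations.

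*cyp8b1.1*, related to the sterol 12-alpha-hydroxylase that sets the mix of bile acids in mammals, fell to 13.28, 12.64, 11.78 and 12.03 at the high concentration, against 13.26 to 14.02 (median 13.76) in the controls. The change was -1.23 ± 0.24 (SE, adjusted p = 7.6e-05), although high replicate 1 lay among the controls. The low value was -0.0059 and the mid value -0.57 (adjusted p of 0.98 and 0.032).

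The values moved in order with concentration in most members. In 22 of the 24 probes, and in 15 of the 17 genes by the probe described, the value at each concentration was lower than at the one before. The exceptions were *cyp24a1* and *cyp2x9*. The share of all probes with a lower value at each step was not computed. Some steps were small beside their error, such as that of *cyp2aa1* from 0.23 at the mid to 0.14 at the high concentration (SE 0.14). The 3 concentrations were also compared with the same controls, so the count of 22 probes is a description. The high effect lay below the low one in all 24 probes, beside 46.5% of all probes. The difference between the high and the low effect was tested with 1 control set on either side, and 15 probes of 9 genes were called, all lower at the high concentration (62.5%, beside 30.2% of all probes called, 15.9% higher and 14.3% lower): *cyp1a*, *cyp2aa12*, *cyp2ad2*, *cyp2ad3*, *cyp2k19*, *cyp2n13*, *cyp2y3*, *cyp3c1* and *cyp4v2a*. For *cyp2ad3* (-1.48, adjusted p = 0.00057) this call was lost without control set 1 replicates 1, 2 or 3, control set 2 replicates 1, 2 or 4, high replicates 3 or 4, or low replicates 2, 3 or 4. Arrays did not overlap the 8 controls for 12 P450 probes at the low concentration (6 above and 6 below, beside 25.3% and 25.2% of all probes, 50.5% together), for 20 at the mid (3 above and 17 below, beside 47.5% and 36.9%, 84.4% together) and for 21 at the high (2 above and 19 below, beside 49.5% and 39.9%, 89.4% together). The control sets have equal means in all probes, which may make non-overlap easier to reach, so these counts are read only beside those shares.

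Markers of liver cells moved as well. The hepatocyte list of 14 genes had 7 probes of 5 genes in the table, of which 5 probes fell at the high concentration, beside 35.0% of all probes. Their summed linear value was 178000 to 210000 in control set 1, 189000 to 206000 in control set 2, 151000 to 185000 on the low arrays, 110000 to 130000 on the mid and 94500 to 107000 on the high. The 7 hepatocyte probes had values between -2.04 and -0.65 at the high concentration, beside -5.47 to 3.50 for the described probes of the 17 P450 genes. The 2 probes of the biliary and stellate list in the table, for 2 of its 6 genes, summed to 4260 to 4940 and 3930 to 5470 in the control sets, 11000 to 12900 on the low arrays, 12100 to 13700 on the mid and 10100 to 15300 on the high. Of these, *krt18a.1* rose by 1.63 and *sox9b* fell by 1.09 at the high concentration. The erythrocyte list had 1 probe in the table, for *hemgn*, with -0.75, -2.20 and -2.70 at the low, mid and high concentrations, the last 2 called, and linear values of 3610 to 6210 and 4110 to 5430 in the control sets, 1820 to 4870 on the low arrays, 934 to 1340 on the mid and 593 to 878 on the high. In bulk liver RNA, fewer cells of a type and less RNA per cell cannot be told apart, and the part of these shifts in the P450 values was not tested.

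Genes that supply or control P450 enzymes were described from lists written with earlier results of these data known. The electron donor list had 7 probes of 5 genes in the table, of which 3 rose and 3 fell at the high concentration, beside 39.2% of all probes higher and 35.0% lower. Both probes of *cyb5a*, the microsomal cytochrome b5, fell (-2.21 and -2.44), as did *cyb5r3*, a cytochrome b5 reductase (-1.94). *cyb5b*, the outer mitochondrial form of cytochrome b5, rose by 2.09, and both probes of *cyb5r4* rose, by 1.17 and 1.14 (adjusted p of all 6 at most 2.1e-05). At the mid concentration 0 of the 7 probes were called higher and 4 lower, beside 31.3% and 30.3% of all probes. Among these 4, *cyb5r2* had -1.68 at the mid concentration (adjusted p = 0.00084) and -0.74 at the high, where it was not called.

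In the list for haem synthesis and breakdown, with 5 probes of 3 genes in the table, 3 probes rose and 1 fell at the high concentration, beside the same shares of all probes. *alas1*, the first and rate-limiting enzyme of haem synthesis in liver, rose at all concentrations. Its 3 probes changed by 1.58 to 1.72 at the low, 2.74 to 2.83 at the mid and 2.93 to 3.32 at the high concentration. *alad*, the next enzyme of the path, fell by 0.98 at the mid and by 1.26 at the high concentration (adjusted p of 1.9e-05 and 5.4e-07). *cpox* had values of -0.63, -0.05 and -0.07 and was not called.

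The list of receptors and regulators of P450 genes had 14 probes of 12 genes in the table, of which 3 rose and 7 fell at the high concentration, with a median change of -1.13, beside 39.2% of all probes higher, 35.0% lower and a median of 0.51. Those that fell were the liver factors *hnf4b* (-3.20), *foxa1* (-1.88), *foxa3* (-1.50) and *hnf4a* (-1.44), the bile acid receptor *nr1h4* (-1.44), and both probes of the retinoid X receptor *rxrgb* (-1.60 and -1.68). *tiparp*, a target and repressor of the aryl hydrocarbon receptor, rose at all concentrations (1.00, 1.37 and 1.49), and its relation to *cyp1a* was not tested. Both probes of *cebpb*, a factor of the acute phase response, rose by 1.94 and 2.27. At the low concentration *cebpa*, another liver factor, and *hnf4b* fell by 2.34 each, and *cebpa* had -0.32 and 0.74 at the mid and high concentrations, neither called. *foxa1* and *rxrgb* had positive values at the low concentration (0.63 for *foxa1*, 0.72 and 0.60 for *rxrgb*), none of which was called. At the mid concentration 3 of the 14 probes were called higher and 8 lower, beside 31.3% and 30.3% of all probes. Among the 8 was *rxrga*, with -0.89 (adjusted p = 8e-05), which had -0.81 at the high concentration and was not called there.

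The feeding arrays were read from the scanner files, where probes had not been picked for change. There 55 P450 probes of 39 genes passed the signal filter, which asks for 3 times the noise or more on each of the 4 arrays of any group, among 16081 probes in all. These 55 were above background on all 12 arrays. The study used an adjusted p of 0.001 in a joint analysis of variance of both experiments. At that threshold limma called no P450 probe at 29 h or at 50 h against fed fish, or at 50 h against 29 h. Of all probes it called 0.00622% at 29 h, 0.0187% at 50 h (0.0124% higher and 0.00622% lower) and 0% at 50 h against 29 h. At an unadjusted p under 0.05 there were 7 P450 probes at 29 h (12.7%, beside 23.2% of all), 11 at 50 h (20%, beside 24.1%) and 3 at 50 h against 29 h (5.45%, beside 6.27%). At an adjusted p of at most 0.05 it called 2 P450 probes at 29 h (3.64%, beside 5.75% of all), 1 higher and 1 lower, beside 2.15% and 3.60% of all probes. At 50 h it called 4 (7.27%, beside 5.99% of all), 1 higher and 3 lower, beside 3.20% and 2.80%. At 50 h against 29 h it called none (beside 0.00622%). Arrays of the groups did not overlap for 7 P450 probes at 29 h, 3 higher and 4 lower (beside 5.11% and 9.71% of all, 14.8% together), and for 4 at 50 h, 1 higher and 3 lower (beside 6.27% and 7.82%, 14.1% together). At 50 h against 29 h this held for 1 P450 probe, of *cyp1d1*, which was lower (beside 2.15% higher and 1.67% lower of all, 3.81% together). The median change of the 55 probes was 0.02 at 29 h and -0.13 at 50 h, beside -0.02 and -0.06 over all probes.

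*cyp26b1*, which clears retinoic acid, was higher without food. Its brighter probe read 7.22, 7.06, 6.89 and 7.54 in fed fish, 8.59, 8.10, 8.24 and 8.31 at 29 h, and 8.58, 8.07, 8.0 and 8.05 at 50 h. The lowest signal to noise ratio of this probe was 3.27, just above the 3 of the filter, so its lowest readings, those of fed fish, lie near the floor. No unfed array overlapped a fed one. The change was 1.13 ± 0.17 at 29 h (adjusted p = 0.0064) and 1.00 ± 0.17 at 50 h (SE, adjusted p = 0.01), and over all processing alternatives the adjusted p ran from 0.00581 to 0.0252 at 29 h and from 0.00608 to 0.0348 at 50 h. Its dimmer probe fell to a signal to noise ratio of 1.05 on a fed array and passed the filter only through unfed groups, so its values of 1.14 and 1.08 (SE 0.43, adjusted p of 0.13 and 0.15) add no support. Within each of the 3 glass slides that carried the arrays, the brighter probe differed from fed fish by 1.12, 1.27 and 0.78 at 29 h and by 1.35, 1.09 and 0.49 at 50 h. Slide differences, here and below, come from the same arrays, with a single array of a group on some slides. They are not further replicates. The deposited table holds no *cyp26* probe, so its response to DDVP was not analysed here.

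*cyp8b1.1* was lower without food. It read 14.34, 14.15, 14.34 and 14.41 in fed fish, 13.68, 13.69, 13.76 and 13.92 at 29 h, and 13.88, 13.75, 13.86 and 13.86 at 50 h, with no overlap between unfed and fed arrays. It fell by 0.54 at 29 h (SE 0.10, adjusted p = 0.011) and by 0.48 at 50 h (SE 0.10, adjusted p = 0.017). Within slides the difference was -0.65, -0.48 and -0.48 at 29 h and -0.46, -0.50 and -0.55 at 50 h. Without fed replicate 3 the adjusted p at 50 h was 0.0572.

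Of genes with more than 1 probe, *cyp4v2a* and *cyp2k19* passed 0.05 at 50 h with their dimmer probe only. For *cyp4v2a* the dimmer probe fell by 0.41 (SE 0.10, adjusted p = 0.04), and the brighter had -0.24 (adjusted p = 0.25). At 29 h its brighter probe had -0.45 and its dimmer -0.38, both without overlap with fed arrays. Their adjusted p of 0.054 and 0.053 lay just above 0.05. For *cyp2k19* the dimmer probe fell by 0.56 (SE 0.13, adjusted p = 0.034), and the brighter had -0.47 (adjusted p = 0.13). *cyp1a*, which fell strongly under DDVP, had positive values without food, 0.36 (SE 0.10) at 29 h and 0.27 (SE 0.10) at 50 h, with adjusted p of 0.054 and 0.13.

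**Figure D3:**
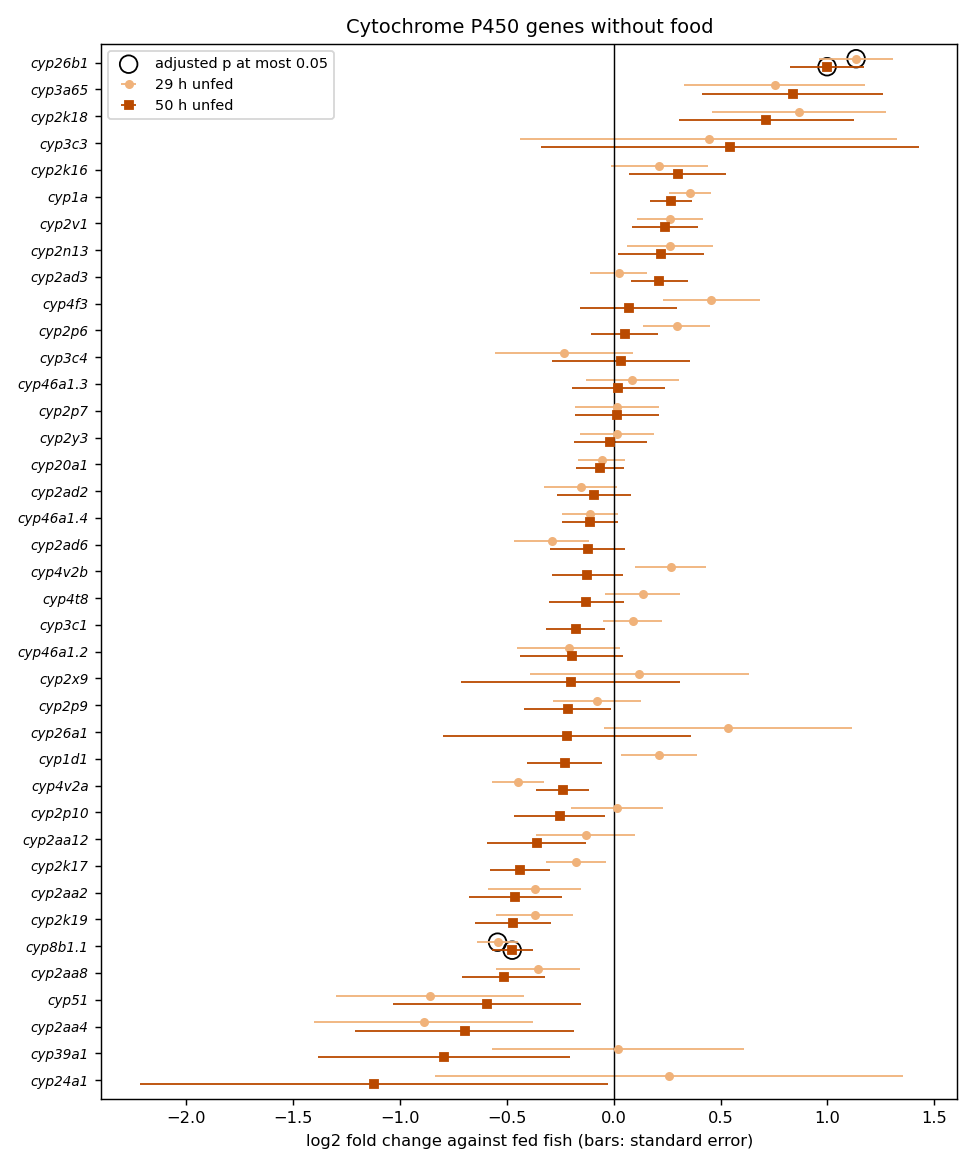
Log2 fold change of the 39 P450 genes that passed the signal filter, at 29 h and 50 h without food against fed fish (n = 4 arrays per group, bars are standard errors), each gene by its brightest probe. Rings mark an adjusted p of at most 0.05, reached by *cyp26b1* above 0 and by *cyp8b1.1* below 0 at both times.

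The other named genes had large values with wide errors, and none was called. *cyp24a1* varied most between pools: its brighter probe read 13.41, 12.02, 11.03 and 8.48 in fed fish, 10.40, 12.09, 10.79 and 12.68 at 29 h, and 10.12, 7.96, 12.77 and 9.60 at 50 h. The groups overlapped, with SDs of 2.08 in fed fish, 1.07 at 29 h and 2.00 at 50 h, all without DDVP. The value at 50 h was -1.12 ± 1.09 (SE, adjusted p = 0.57), and within the slides it was -3.29, -3.57 and 2.71. *cyp39a1*, an oxysterol 7-alpha-hydroxylase of the bile acid path, had -0.79 ± 0.59 at 50 h (adjusted p = 0.44). *cyp51*, the lanosterol demethylase of cholesterol synthesis, had -0.86 ± 0.44 at 29 h and -0.59 ± 0.44 at 50 h (adjusted p of 0.27 and 0.44).

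Among genes of the foreign-compound families that have no DDVP values, *cyp3a65*, related to the main drug-oxidising CYP3A enzymes of mammals, had 0.75 ± 0.42 at 29 h and 0.84 ± 0.42 at 50 h (adjusted p of 0.32 and 0.25). *cyp2k18* had 0.87 ± 0.41 and 0.71 ± 0.41, and *cyp2aa4* -0.89 ± 0.51 and -0.70 ± 0.51, with adjusted p of 0.23 to 0.44. At 50 h against 29 h the lowest values were those of *cyp24a1* (-1.38), *cyp39a1* (-0.81) and *cyp26a1* (-0.75), a second retinoic acid hydroxylase, and the highest those of *cyp3c4* (0.27), *cyp51* (0.27) and *cyp4v2a* (0.21), all with adjusted p of at least 0.8. Within the slides, 50 h minus 29 h was -1.13, -2.84 and -1.49 for *cyp24a1*, with -1.40, -2.02 and -1.48 for its dimmer probe. For *cyp39a1* it was -0.69, -0.80 and -1.14, so these values were below 0 on every slide. The dimmer *cyp24a1* probe and the *cyp39a1* probe came near the floor, with lowest signal to noise ratios of 1.86 and 2.48. Their lowest readings, 5.80 and 5.81, were both in the 50 h replicate 2, so their slide values add no support. For *cyp26a1* it was -1.62, -0.90 and 0.49. Being below 0 on every slide was not particular to these genes. Many other P450 probes were so too, among them every *cyp1a* probe and those of *cyp1d1*, *cyp3c1*, *cyp2k17*, *cyp4f3* and *cyp4t8*. In this comparison 41 of the 55 P450 probes had values below 0 (74.5%, beside 51.2% of all probes). For *cyp24a1*, *cyp39a1*, *cyp51*, *cyp3a65*, *cyp2k18* and *cyp2aa4*, with SE of 0.41 to 1.09, a change of 1.8-fold could not be told from the spread between pools.

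**Figure D4:**
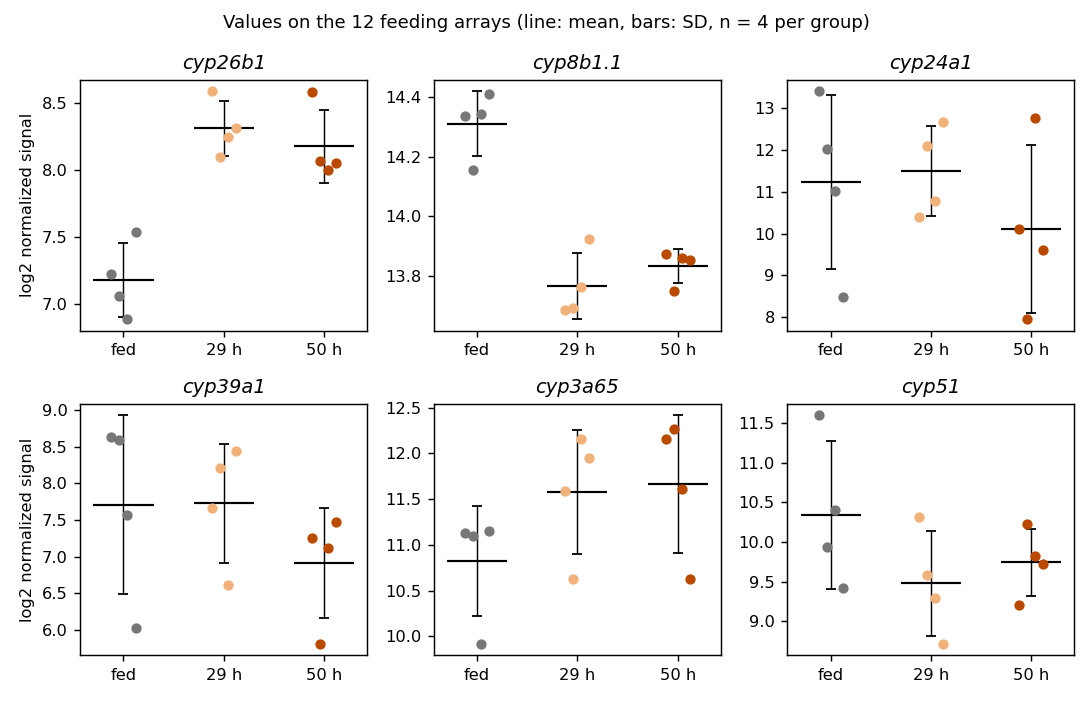
Log2 normalized signal of 6 P450 genes on the 12 feeding arrays in fed fish and at 29 h and 50 h without food, each point 1 array, with the mean as a line and the SD as bars (n = 4 per group; the vertical scale differs between panels). *cyp26b1* and *cyp8b1.1* separate unfed from fed arrays, while *cyp24a1*, *cyp39a1*, *cyp3a65* and *cyp51* overlap. The *cyp24a1* probe shown is not the one behind its DDVP values.

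The summed linear signal of the hepatocyte list was 1740000 to 1830000 in fed fish, 1690000 to 1920000 at 29 h and 1740000 to 1910000 at 50 h. That of the biliary and stellate list (8 probes, 5 of them past the filter) was 12600 to 17500 in fed fish, 26300 to 30600 at 29 h and 29100 to 49100 at 50 h, without overlap between unfed and fed arrays. In this list only *krt18a.1* was called at 0.05 (1.11 at 29 h and 1.29 at 50 h), and the median over its 5 probes was 0.32 at 29 h and -0.28 at 50 h. The exocrine pancreas list was 361000 to 874000 in fed fish, 114000 to 361000 at 29 h and 116000 to 889000 at 50 h. The macrophage list (7 probes, 5 past the filter) was 9770 to 20400, 13600 to 35300 and 18400 to 39900 in the same order, with medians of 0.68 at 29 h and 1.06 at 50 h and 1 probe, of *mpeg1.1*, called at 0.05 at 50 h (1.16). The intestine list (6 probes, 3 past the filter) was 1890 to 22300, 1220 to 75400 and 1650 to 59500, with medians of 1.6 and 1.87 and no probe called, and the erythrocyte list (10 probes, 9 past the filter) was 12500 to 38000, 16100 to 37200 and 12800 to 28800, with medians of 0.45 and -0.26. The part of these cell types in the P450 values was not tested.

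Some genes of the partner lists passed the 0.05 threshold in unfed fish. Of all probes, 2.15% passed higher and 3.60% lower at 29 h, with 3.20% and 2.80% at 50 h. Of 10 electron donor probes, 1 passed at 29 h and 4 at 50 h, all lower. Of 14 haem probes, 1 passed higher and 2 lower at 29 h, and 1 lower at 50 h. Of 27 regulator probes, 3 passed at 29 h and 2 at 50 h, all higher. Among electron donors, a probe of *cyb5r2* fell at 29 h (-0.80), and both of its probes fell at 50 h (by 0.77 and 0.95), as did both of *cyb5a* (by 0.31 and 0.41). Among haem enzymes *alad* fell by 0.66 at 29 h and by 0.55 at 50 h, *cpox* fell by 1.02 at 29 h, and *uros* rose by 0.56 at 29 h. Among regulators *foxa3* and *tiparp* rose by 0.68 each at 29 h, and by 0.80 and 0.94 at 50 h. *cebpb* rose by 0.46 at 29 h.

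The effect of the high DDVP concentration was set against that of 50 h without food on the deposited table, where both experiments stand on the authors' common scale after removal of a batch effect between them. Their difference was called at an adjusted p of at most 0.001 in 19 of the 24 P450 probes (79.2%, beside 73.2% of all probes), 18 of them lower and 1 higher under DDVP (beside 31.2% lower and 42.1% higher of all). The 12 genes were *cyp24a1*, with a difference of 4.80 ± 1.08, and *cyp1a*, *cyp2aa12*, *cyp2ad2*, *cyp2ad3*, *cyp2k19*, *cyp2n13*, *cyp2p6*, *cyp2x9*, *cyp2y3*, *cyp3c1* and *cyp4v2a*, with differences between -0.93 (*cyp3c1*) and -5.25 (*cyp4v2a*). For *cyp24a1* the high concentration gave 3.50 and 50 h without food -1.30 ± 1.11 (SE). Its difference ran from 4.03 to 5.74 with single arrays left out. *cyp1a* had -2.92 at the high concentration and 0.29 at 50 h in this table, a difference of -3.21 ± 0.41 (SE, adjusted p = 7.4e-08). For *cyp2x9*, the difference of -3.30 lost its call without high replicate 2 (adjusted p = 0.00109).

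The 5 genes whose effects were not shown to differ at that threshold were *cyp8b1.1* (-1.23 at the high concentration and -0.51 at 50 h, difference -0.72 ± 0.29, adjusted p = 0.023), *cyp2aa2* (-1.65 and -0.49, difference -1.15 ± 0.35, adjusted p = 0.0035), *cyp2v1* (0.95 and 0.28, difference 0.68 ± 0.23, adjusted p = 0.0075), *cyp2aa1* (0.14 and -0.72, difference 0.86 ± 0.23, adjusted p = 0.0014) and *cyp4v2b* (-0.28 and -0.16, difference -0.13 ± 0.31, adjusted p = 0.7). At an adjusted p of at most 0.05 the difference passed in 23 of the 24 probes, all but *cyp4v2b* (beside 90.0% of all probes, 50.3% higher and 39.7% lower). *cyp8b1.1* was the one P450 gene called lower both at the high concentration and, at 0.05, in both feeding comparisons. The margin was narrow, since *cyp4v2a* had adjusted p of 0.054 and 0.053 at 29 h and passed at 50 h with its dimmer probe.

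**Figure D5:**
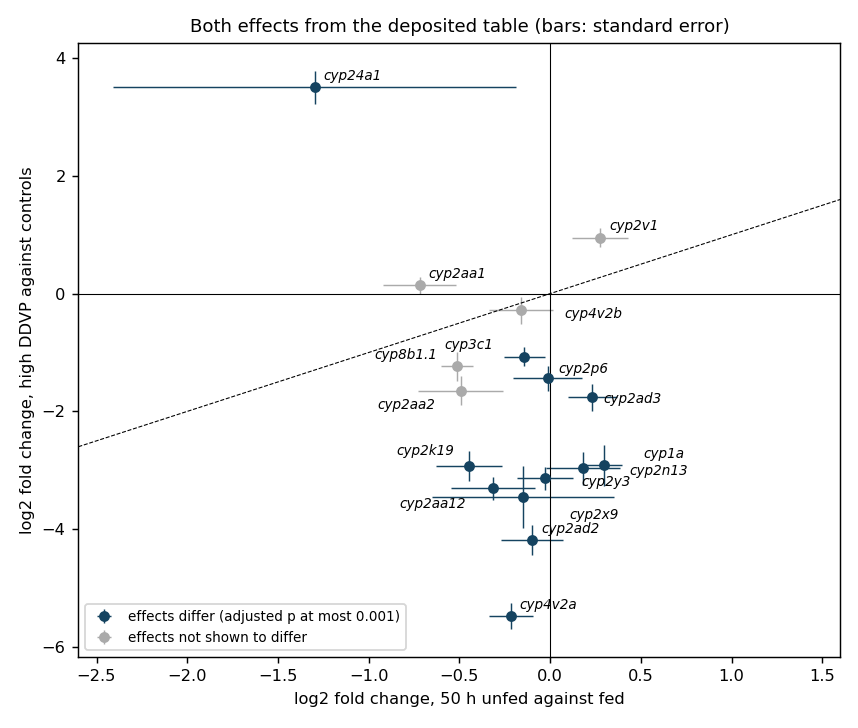
Log2 fold change of the 17 P450 genes at the high DDVP concentration (vertical) against that at 50 h without food (horizontal), both from the deposited table, with standard errors as bars (n = 4 arrays per group) and equal effects on the dashed line. Dark points mark the 12 genes whose difference was called, *cyp24a1* above the line and 11 genes below it.

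The members that did not pass the filter are part of the picture. On the feeding arrays 28 probes did not pass, and 17 genes had no passing probe, among them the single *cyp7a1* probe for the rate-limiting enzyme of bile acid synthesis and all probes of the steroid-making families 11, 17 and 19 and of family 27. For 6 probes no array was well above background. Others failed although some arrays gave clear signal. The *cyp7a1* probe was well above background on all 12 arrays, with signal to noise ratios of -0.453 to 11. *cyp2aa1* was the only member of the deposited table that did not pass. Of the 55 passing P450 probes 23 (41.8%) were in the deposited table, beside 5209 of 16081 probes in all (32.4%), and 23 genes, including those of families 20, 26, 39, 46 and 51, passed without a probe in the table, so their response to DDVP was not analysed here.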

How the data were processed

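Liver RNA of 32 pools was measured on single-colour Agilent zebrafish arrays. The authors made the deposited log2 values of 5481 probes from median spot signals that they quantile normalized, logged and corrected for a batch effect between the experiments (scanned on different instruments), and picked the probes in a joint analysis of variance of these same arrays. The deposited scanner files of the 12 feeding arrays hold intensity values per spot from Agilent Feature Extraction 10.7.1.1. Their median signal was quantile normalized without background subtraction, taken to log2 and averaged per probe, leaving out flagged spots. Array medians were 46 to 59 intensity units over a background of 38 to 52, so dim probes are less precise. Whole-array DDVP files were not used here.

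Contrasts were fitted with limma 3.58.1 (R 4.3.3) and adjusted by Benjamini-Hochberg over all probes tested (5481 or 16081). For DDVP the threshold was an adjusted p of 0.001 with 1.8-fold, for feeding 0.001 and, beside it, 0.05. The high against low contrast was high minus control set 2, less low minus control set 1. Scripts were checked on simulated data. Probes were named through RefSeq accessions in a GRCz12tu gene table. No probe sequences were used.

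Named are all member genes of the deposited table, members called at 0.05 in a feeding comparison, and the 3 largest changes in each direction of each. A gene with several probes is described by the probe with the highest mean (over the 8 controls, or over the feeding arrays). Partner and marker lists were written from gene names. Members and lists were chosen with earlier results of these data known. Alternatives covered the control set, scaling, filters, thresholds, variance model, slide, replicate number and each array left out. Normexp background correction was run on the median signal, chosen after seeing that the scanner files used have no mean signal column.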

Additional observations from a re-analysis of the deposited data

Results flagged for a closer look

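Among the groups of 4 arrays behind the named genes, 124 were tested for 1 array far from the other 3, and 11 were found, where chance alone flags about 1 in 20. On the DDVP arrays, *cyp2aa12* read 10.76 in mid replicate 4 (others 10.26 to 10.32), *cyp2n13* read 9.73 in high replicate 3 (others 10.99 to 11.24), and *cyp2x9* read 9.74 in mid replicate 3 (others 8.16 to 8.39). In the controls, *cyp2aa2* read 9.27 and *cyp4v2b* 10.71 in set 1 replicate 3 (others 10.56 to 10.72 and 11.86 to 12.08), *cyp2ad3* read 12.15 in set 2 replicate 3 (others 12.59 to 12.68), and *cyp4v2a* read 13.99 in set 2 replicate 1 (others 13.49 to 13.57). On the feeding arrays, *cyp26b1* read 8.58 in the 50 h replicate 1 (others 8.0 to 8.07), *cyp2aa4* read 9.16 (others 10.05 to 10.16) and *cyp8b1.1* 13.75 (others 13.86 to 13.88) in the 50 h replicate 2, and *cyp3a65* read 9.92 in fed replicate 3 (others 11.10 to 11.16). Without the far array of control set 1, the reference, *cyp4v2b* was no longer called at the low concentration.

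In 12 genes the effect of the high concentration differed from that of 50 h without food by the contrast over all 32 arrays. The differences, DDVP effect minus feeding effect, were 4.80 for *cyp24a1*, -5.25 for *cyp4v2a*, -4.08 for *cyp2ad2*, -3.30 for *cyp2x9*, -3.21 for *cyp1a*, -3.14 for *cyp2n13*, -3.11 for *cyp2y3*, -2.99 for *cyp2aa12*, -2.48 for *cyp2k19*, -1.99 for *cyp2ad3*, -1.43 for *cyp2p6* and -0.93 for *cyp3c1*.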

How the results depend on the processing

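The counts of P450 probes called stayed within 1.5 times their value under every alternative run for the DDVP comparisons and for the difference of effects. With each array left out in turn they were 5 to 7 at the low, 15 to 18 at the mid and 21 to 22 at the high concentration, 14 to 19 for high against low and 18 to 20 for the difference of effects, and 0 in each feeding comparison. At an adjusted p of 0.05 the feeding counts became 4 at 50 h and 2 at 29 h. Signs turned only in values that were not called. *cyp8b1.1* at the low concentration was 0.033 with arrays centred on their medians, 0.067 after quantile normalization, and -0.13 to 0.11 with arrays left out. With arrays left out, the high minus low effect of *cyp24a1* ran from -0.52 to 0.13, *cyp3c4* at 50 h against 29 h from -0.057 to 0.58, and the difference of effects of *cyp4v2b* from -0.44 to 0.024, or 0.13 with 29 h as the feeding group. Whether the replicate numbers pair the samples was not settled, because no chance level was computed. Same-numbered arrays correlated from -0.28 to 0.33 in their deviations from group means on the DDVP arrays and from -0.30 to 0.37 on the feeding arrays. Their median was 0.05 on the DDVP arrays (other numbers -0.01) and -0.06 on the feeding arrays (other numbers 0.05). On the DDVP arrays 8 of 20, and on the feeding arrays 3 of 12, were nearest to an array of their own number. With the replicate number as a block, 6, 18 and 22 probes were called at the low, mid and high concentrations, 15 for high against low, 0 in each feeding comparison and 19 for the difference of effects. Background correction of the mean signal was not run, because the scanner files used have no such column. Depth per array cannot be read from the deposited table, and the number of arrays limits the precision.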
